A study of Homo sapiens with 8 samples.

Results

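The genes described here encode the inhibin and activin subunits and the proteins that bind activin: INHA, INHBA, INHBB, FST and FSTL3. They were chosen by name, and all 5 were found among the 19970 protein-coding genes of chromosomes 1 to 22 and X that were examined. For each gene, every listed peak inside the gene or within 50 kb of either end was taken, and this stretch is called the gene's window. The windows held 20 of the 22215 peaks of H3K9ac (acetylated lysine 9 of histone H3) in control cells and 98 of 79356 in butyrate-treated cells. They held 17 of the 73586 peaks of H4K16ac (acetylated lysine 16 of histone H4) in control and 15 of 33752 with butyrate.

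The cells were KGN, an established line from a human ovarian granulosa cell tumour, at passage 5 to 8. They were kept for 6 h with no addition (control) or with 1 mM butyrate, a product of gut bacteria that blocks histone deacetylases. Chromatin immunoprecipitation and sequencing was run with antibodies to H3K9ac, H4K16ac or nonspecific immunoglobulin G (IgG), with 1 library per condition and antibody. There were no replicates, so every difference is between 2 libraries, none was tested and none has a p-value.

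Inhibins are dimers of the alpha subunit, the product of INHA, with a beta subunit, whereas activins are dimers of the beta subunits alone, the products of INHBA and INHBB. Activins raise the release of follicle-stimulating hormone by the pituitary and inhibins lower it, and granulosa cells of the ovary are a main source of both. Follistatin, the product of FST, and the follistatin-like protein of FSTL3 bind activins and keep them from their receptors. H3K9ac is found mainly at the promoters of active genes, and H4K16ac is laid down mainly by the acetyltransferase KAT8 and accompanies open chromatin.

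The promoters of the 5 genes are shown because the peaks at their starts differed in position and their base composition spans most of the range of human promoters. Each stretch runs from 250 bases before to 50 bases after the start in the RefSeq promoter table (GRCh38.p14), 5′ to 3′ on the strand of the gene. All 5 genes matched an entry. Capitals mark matches, on either strand, to 6 motifs. The cyclic AMP response element was searched as TGACGTCA, and its first 5 bases were searched alone as TGACG, so that each longer match holds the shorter. The site of the steroidogenic factor NR5A1 was searched as AAGGTCA, the box bound by SMAD proteins as GTCTAGAC, and the box bound by SP factors (the GC box) as GGGCGG. The core promoter element bound by TBP was searched as TATAAA. Matches can overlap each other. INHA lies at chr2:219572060-219572359 (plus strand), INHBA at chr7:41703041-41703340 (minus strand), INHBB at chr2:120345886-120346185 (plus strand), FST at chr5:53480379-53480678 (plus strand) and FSTL3 at chr19:676142-676441 (plus strand).
INHA: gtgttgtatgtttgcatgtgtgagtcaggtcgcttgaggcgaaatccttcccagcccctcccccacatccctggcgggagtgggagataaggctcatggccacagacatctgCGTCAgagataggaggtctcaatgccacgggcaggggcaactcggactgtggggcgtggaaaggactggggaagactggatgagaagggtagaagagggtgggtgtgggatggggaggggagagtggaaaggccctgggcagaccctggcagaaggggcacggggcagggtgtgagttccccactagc
INHBA: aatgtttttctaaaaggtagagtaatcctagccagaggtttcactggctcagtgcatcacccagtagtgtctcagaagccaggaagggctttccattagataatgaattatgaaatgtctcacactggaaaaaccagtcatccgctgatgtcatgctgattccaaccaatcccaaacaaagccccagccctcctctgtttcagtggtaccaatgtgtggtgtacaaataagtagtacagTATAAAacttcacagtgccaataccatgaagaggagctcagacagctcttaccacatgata
INHBB: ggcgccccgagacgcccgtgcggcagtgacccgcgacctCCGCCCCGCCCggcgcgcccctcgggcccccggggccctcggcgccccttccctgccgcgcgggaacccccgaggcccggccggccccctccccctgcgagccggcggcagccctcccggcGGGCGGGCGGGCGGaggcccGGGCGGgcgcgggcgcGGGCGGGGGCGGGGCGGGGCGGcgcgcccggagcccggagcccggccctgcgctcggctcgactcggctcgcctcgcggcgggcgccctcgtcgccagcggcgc
FST: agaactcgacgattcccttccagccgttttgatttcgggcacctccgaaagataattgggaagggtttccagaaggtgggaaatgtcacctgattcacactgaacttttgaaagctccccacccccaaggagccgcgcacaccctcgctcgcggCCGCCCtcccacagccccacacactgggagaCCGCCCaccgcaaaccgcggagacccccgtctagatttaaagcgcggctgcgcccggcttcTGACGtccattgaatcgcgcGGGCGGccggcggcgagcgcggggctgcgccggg
FSTL3: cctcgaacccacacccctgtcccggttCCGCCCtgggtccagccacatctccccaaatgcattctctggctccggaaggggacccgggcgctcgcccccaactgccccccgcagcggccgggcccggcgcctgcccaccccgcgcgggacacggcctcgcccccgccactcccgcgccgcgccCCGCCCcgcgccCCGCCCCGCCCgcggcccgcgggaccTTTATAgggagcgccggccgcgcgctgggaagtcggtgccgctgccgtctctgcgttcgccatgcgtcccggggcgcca

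INHBB and FSTL3 had the promoters richest in CpG dinucleotides, INHBA had the poorest. The INHBB promoter held 58 CpG and 88.7% G and C, at percentile 99.9 of the CpG count over 15811 promoters of the same length, whose medians were 22 CpG and 62.7% G and C. FSTL3 followed with 44 CpG (percentile 94.9) and FST with 32 (percentile 75.8). INHA held 8 CpG (percentile 24.4), and INHBA held 1 (percentile 3.9) with 43.3% G and C. The GC box occurred 10 times in INHBB, 4 times in FSTL3 and 3 times in FST, against at least 1 match in 58.5% of all promoters. TGACG was found in INHA (on the minus strand, bases 113 to 117 of the 300) and in FST (bases 247 to 251), and in 29.4% of all promoters. TATAAA was found in INHBA (bases 240 to 245) and, on the minus strand, in FSTL3 (bases 222 to 227), and in 9.6% of all promoters. The cyclic AMP response element in full, the NR5A1 site and the SMAD box, held by 2.6%, 3.1% and 0.2% of all promoters, had no match in these 5 stretches. A match is a run of letters and says nothing on binding.

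Each peak carries the authors' fold and their −log10 p and q. The fold is the ratio of fragments at the summit to the local background, after the same small constant is added to both. Where a peak has several summits, the values of its strongest summit are given. The number of fragments stacked at a summit was recovered from the fold and the p-value, and is given with an exact Poisson 95% interval. Fragments are not known to be independent molecules and a summit is a local maximum, so these intervals cover counting error only. The implied depth was 24.3 M fragments (M, mega) in control H3K9ac, 29.4 M in butyrate H3K9ac, 17.4 M in control H4K16ac and 23.9 M in butyrate H4K16ac. The H3K9ac lists stop at a q of 0.05, and their median summit held 20 fragments in control and 17 with butyrate. For H4K16ac the authors set the limit on p, 39.6% of control and 1.1% of butyrate peaks had a q of 0.05 or less, and the median summit held 9 and 10 fragments, so these peaks are much weaker. The IgG lists held 5 peaks in control and 2 with butyrate, none of them in the 5 windows.

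The label of the cells was set beside defining markers, as peaks within 1 kb of a gene's start. H3K9ac marked 2 of 8 granulosa markers in control (FOXL2, the ovarian transcription factor, and CYP11A1, the enzyme that opens steroid synthesis) and 3 of 8 with butyrate (AMHR2, the receptor for anti-Müllerian hormone, was added). The starts of FSHR, CYP19A1, NR5A1, GATA4 and WT1 had no H3K9ac peak in either list. Markers of other cells were marked at 2 of 4 (oocyte), 2 of 4 (epithelium), 1 of 4 (immune), 0 of 4 (endothelium) and 0 of 4 (theca and stroma) in control, and at 2 of 4 in each set with butyrate. Of all genes with a known strand and start, 58.1% had such a peak in control and 67.8% with butyrate. Both shares were above those of the granulosa list. Peaks at starts thus did not set the granulosa list apart from the others.

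At the starts of the 5 genes, H3K9ac peaks were listed for 3 genes in control and for 5 with butyrate. INHA, INHBB and FSTL3 had a peak within 1 kb of the start in both conditions, and FST and INHBA had one with butyrate only. Over 18457 genes with a known strand and start, 58.1% had such a peak in control and 67.8% with butyrate, and of those without one in control 23.5% had one with butyrate. H4K16ac lay at 2 starts in control, INHA and FSTL3, and at none with butyrate. The background for H4K16ac was 20.1% of genes in control and 4.91% with butyrate, and of the genes with an H4K16ac peak in control 89.0% had none with butyrate. The loss at the 2 starts was thus what most marked genes showed. The INHBA call is the least firm, since its peak lies within 1 kb of only 1 of its 3 annotated starts. With the start of the RefSeq promoter table alone, or with equal numbers of top peaks from both H3K9ac lists, the count with butyrate was 4.

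**Figure D1:**
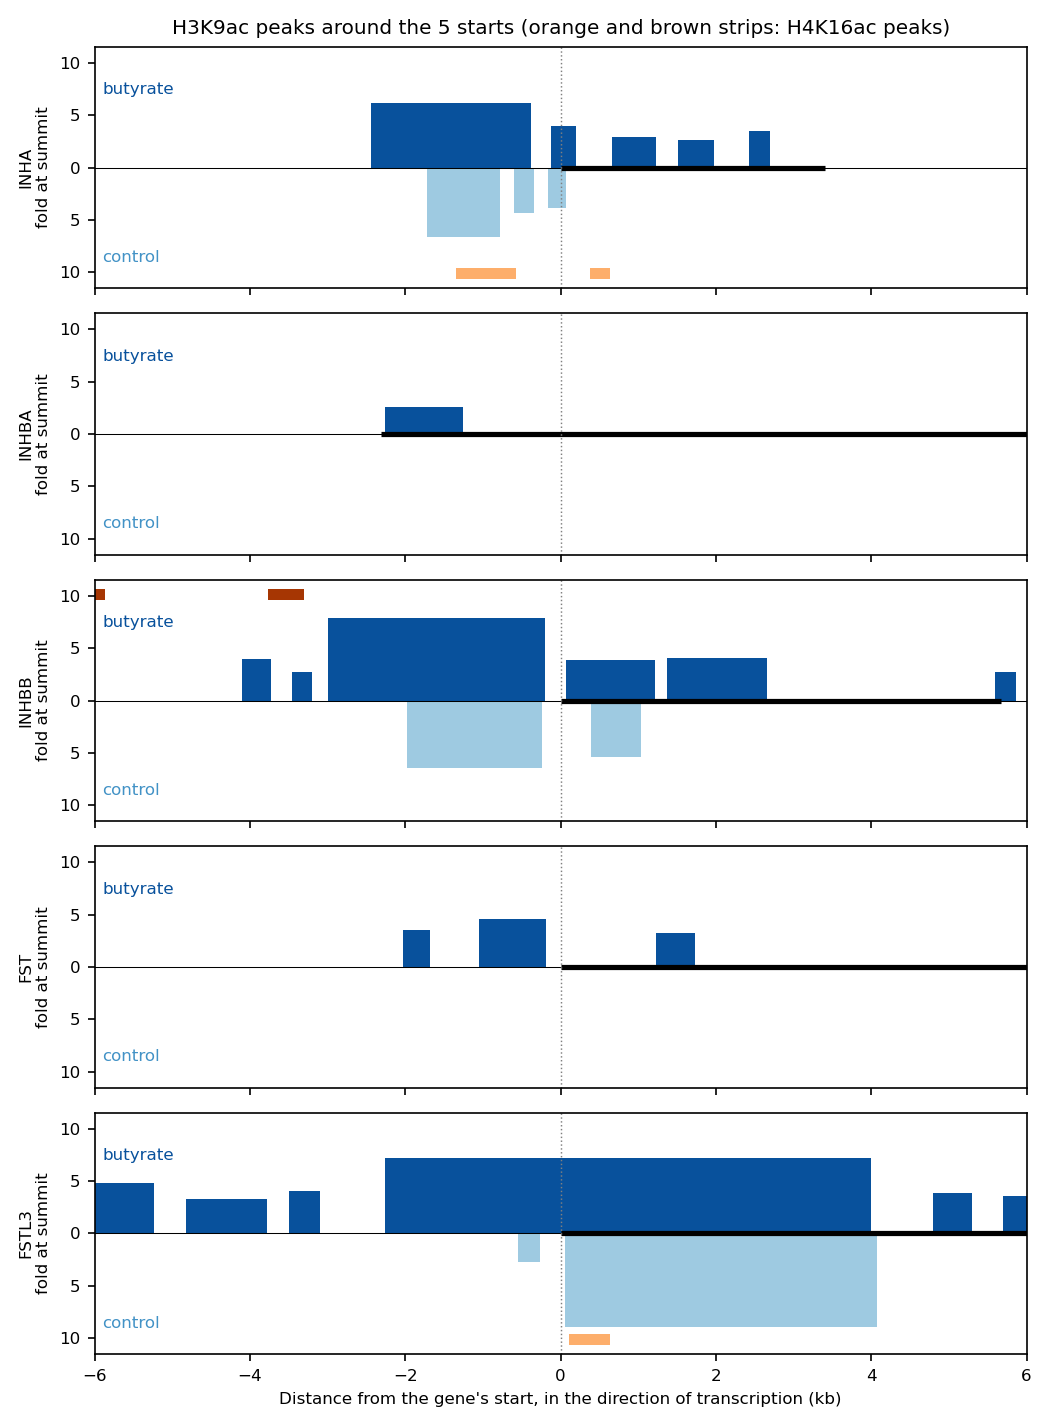
H3K9ac peaks within 6 kb of each start, plotted by distance from the start in the direction of transcription (kb), with butyrate upwards and control downwards. Bar height is the authors' fold at the strongest summit, bar width is the peak, the black line is the gene, and strips at the top (butyrate) and bottom (control) are H4K16ac peaks. Control bars are missing at INHBA and FST, and the peak of 6254 bp at FSTL3 crosses the start.

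INHA (gene ID 3623, chr2:219572310-219575711, plus strand) encodes the alpha subunit that sets inhibin apart from activin. In control, 3 H3K9ac peaks lay within 2 kb upstream of or over its start. The one over the start itself was the smallest: chr2:219572144-219572375, 232 bp, the narrowest width in that list, with 13 fragments (95% interval 6.9 to 22.2) over a background of 2.65 and a fold of 3.84. With butyrate the peak over the start was chr2:219572189-219572511, 323 bp, with 21 fragments (13.0 to 32.1) over 4.61 and a fold of 3.92. The fold was thus nearly the same in both libraries and the intervals of the fragment numbers overlapped. In the authors' annotation the control peak ends in the 5′ UTR and the butyrate peak in exon 1 of INHA.

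The widest H3K9ac peaks within 2.5 kb of the INHA start lie at the start of OBSL1, a cytoskeletal adaptor gene that is transcribed away from INHA on the other strand (chr2:219547206-219571539). In control this peak covered chr2:219570592-219571533 (942 bp, fold 6.60, 26 fragments), and its nearer edge was 777 bp upstream of INHA. A second control peak of 248 bp lay at chr2:219571714-219571961, with a fold of 4.32. With butyrate a single peak of 2063 bp, chr2:219569867-219571929, took in both, with a fold of 6.14 and again 26 fragments. It ended 381 bp short of the INHA start. The peaks upstream of INHA are therefore also peaks at OBSL1, and the files cannot assign them to 1 of the genes.

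Inside the short INHA gene, butyrate added 3 H3K9ac peaks that control did not list. They were 574 bp wide 660 bp after the start, 470 bp wide at 1506 bp (both in the last intron) and 274 bp wide at 2428 bp (in the last exon). Their folds were 2.94, 2.62 and 3.49, with 11, 10 and 16 fragments. In −log10 p they exceeded 19.1%, 7.4% and 54.7% of the butyrate list, so the first and the second were among its weaker peaks. Within 2 kb of the start, H3K9ac peaks covered 1422 bp in control and 2987 bp with butyrate.

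The control H4K16ac peaks at INHA were 776 bp at chr2:219570958-219571733, over the OBSL1 start with 6 fragments (2.2 to 13.1), and 252 bp at chr2:219572688-219572939, in the last intron of INHA with 10 fragments (4.8 to 18.4). Their −log10 q of 0.73 and 1.42 correspond to weak calls, only the second passing a q of 0.05. Neither had a counterpart in the butyrate H4K16ac list. Covered length within 2 kb went from 1028 bp in control to 0 bp with butyrate, the opposite order to H3K9ac.

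Over the whole INHA window, H3K9ac had 7 peaks in control and 29 with butyrate, covering 3.22 kb and 17.95 kb, a ratio of 5.57. Of the 24 peaks listed with butyrate alone, 20 lay inside other protein-coding genes, 3 inside INHA and 1 in no such gene. Control peaks away from INHA stood at the starts of CHPF and TMEM198, which lie close together on opposite strands, and of STK11IP, which encodes a partner of the kinase STK11 and lies downstream. These peaks were wider with butyrate at CHPF and TMEM198 (611 bp over 2 peaks against 2151 bp over 1), and 1 of the 2 at STK11IP was wider (708 against 951 bp) and the other narrower (484 against 330 bp). H4K16ac had 10 peaks in control and 4 with butyrate in the window, and the single peak shared between its lists lay 27 kb downstream, inside STK11IP (chr2:219599306-219599645 with butyrate).

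INHBA (gene ID 3624, chr7:41685114-41705406, minus strand) encodes the beta A subunit of activin A and inhibin A. Its window held 1 peak in the 4 lists together. This was the butyrate H3K9ac peak chr7:41704352-41705352, 1001 bp wide, with 19 fragments (11.4 to 29.7) over a background of 6.77. Its fold of 2.58 was the lowest of any butyrate H3K9ac peak within 2.5 kb of the 5 starts, and it exceeded 29.5% of the butyrate list in −log10 p. The peak ends 1262 bp upstream of the start of the RefSeq promoter table (position 41703090), which nearly coincides with the authors' start (41703108). It lies within 1 kb of position 41705406, the 5′ end of INHBA in the RefSeq gene table. Control had no H3K9ac peak in the window, as in 24.3% of all genes. Neither library had an H4K16ac peak there, as in 21.6% of all genes.

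INHBB (gene ID 3625, chr2:120346136-120351803, plus strand) encodes the beta B subunit of activin B and inhibin B. It already carried H3K9ac on both sides of its start in control, and both peaks were wider with butyrate. The upstream peak was chr2:120344157-120345898 in control (1742 bp, 4 summits, fold 6.41, 24 fragments, 15.4 to 35.7). With butyrate it was chr2:120343139-120345938 (2800 bp, 5 summits, fold 7.85, 36 fragments, 25.2 to 49.8). Its −log10 q of 19.51 was the highest of all H3K9ac butyrate peaks at the 5 starts, and 98.0% of the butyrate list was weaker in −log10 p. The fragment intervals of the 2 conditions overlap, and the butyrate library was also the deeper one (29.4 M against 24.3 M).

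The downstream INHBB peak went from 641 bp in control (chr2:120346529-120347169, exon 1 into the intron, fold 5.37, 19 fragments) to 1155 bp with butyrate (chr2:120346199-120347353, fold 3.86, 29 fragments). Its fold was lower although its width and fragment number were greater, and its local background was 2.72 fragments in control and 6.77 with butyrate. A further peak of 1287 bp followed in the intron with butyrate only (chr2:120347509-120348795, fold 4.01, 18 fragments). In neither condition did a peak cover the start itself. The uncovered bases ran from 238 bp upstream to 393 bp downstream of the start in control and from 198 bp upstream to 63 bp downstream with butyrate, so 13 and 53 of the 300 promoter bases shown above lay under a peak.

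INHBB had the only H4K16ac window count that was higher with butyrate, 5 peaks in control and 9 with butyrate, and no peak was common to both. Counting only peaks with a q of 0.05 or less turned this order, to 2 in control and 1 with butyrate. Of the 32 H4K16ac peaks in the 5 windows, the one with the highest fold was listed with butyrate at chr2:120336099-120336449, ending 9.7 kb upstream of INHBB (351 bp, fold 5.37, 19 fragments, 11.4 to 29.7). It was the only butyrate H4K16ac peak of the 5 windows with a q of 0.05 or less (−log10 q 2.82). The other 8 had 8 to 13 fragments. Several upstream peaks overlap LOC105373989 (chr2:120328666-120345993), an annotated gene that ends just before the INHBB start and is named here after its values were seen.

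FST (gene ID 10468, chr5:53480629-53487134, plus strand) encodes follistatin, and its H3K9ac peaks were all listed with butyrate alone. The strongest was chr5:53479573-53480445, 873 bp wide, ending 184 bp upstream of the start, with 26 fragments (17.0 to 38.1) over 4.85 and a fold of 4.61. It exceeded 82.8% of the butyrate list in −log10 p and overlapped 67 of the promoter bases shown above. A second peak of 340 bp lay farther upstream (chr5:53478603-53478942, fold 3.51, 14 fragments). The next, of 497 bp, lay in intron 1 (chr5:53481861-53482357, fold 3.24, 21 fragments, 13.0 to 32.1). The fourth, of 307 bp and 9 fragments, was 49 kb upstream, and its −log10 p of 3.14 would not have entered the control list, whose lowest value was 3.46. Peaks thus stood on both sides of the FST start and not over it, as at INHBB.

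Neither control list had a peak in the FST window, and the H4K16ac list with butyrate had none either. The depth of the control H3K9ac library was set beside these peaks. Scaled to that depth, the 26 fragments of the strongest peak correspond to 21.5, and the control list would have needed 12 at the same scaled background. The corresponding values were 17.4 against 14 for the intron 1 peak and 11.6 against 10 for the second upstream peak. At INHBA they were 15.7 against 15. These summits are maxima picked in the butyrate library and carry the counting intervals given above, so the part of depth in the missing control peaks was not tested.

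FSTL3 (gene ID 10272, chr19:676392-683385, plus strand) encodes the follistatin-like antagonist. Among the control H3K9ac peaks at the 5 starts, its larger one was the strongest in −log10 p. Its control peak chr19:676449-680460 was 4012 bp wide with 9 summits, from exon 1 to exon 3, with 45 fragments (32.8 to 60.2) over 4.16 and a fold of 8.91. Of the control list, 98.3% of peaks were weaker in −log10 p and 99.5% narrower. A small control peak of 294 bp (chr19:675838-676131, fold 2.71, 13 fragments) lay upstream, and the start stood in the gap between them. With butyrate 1 peak of 6254 bp with 12 summits, chr19:674134-680387, joined both sides and covered all 300 promoter bases, of which control peaks covered 0. It was the widest peak in the 5 windows and wider than 99.9% of the butyrate list. In −log10 p it exceeded 95.3% of that list, less than the 98.0% of the upstream INHBB peak.

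The height at FSTL3 went the other way. With butyrate the strongest summit had 31 fragments (21.1 to 44.0) over 3.44 and a fold of 7.20, below the control values, although the butyrate library was deeper. The counting intervals overlapped. Covered length within 2 kb of the start was 2238 bp in control and 4001 bp with butyrate. The H4K16ac peak in control, chr19:676499-677033 (535 bp, exon 1 into intron 1), had 9 fragments (4.1 to 17.1) and a −log10 q of 1.12, so it did not pass a q of 0.05, and it was not listed with butyrate.

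**Figure D2:**
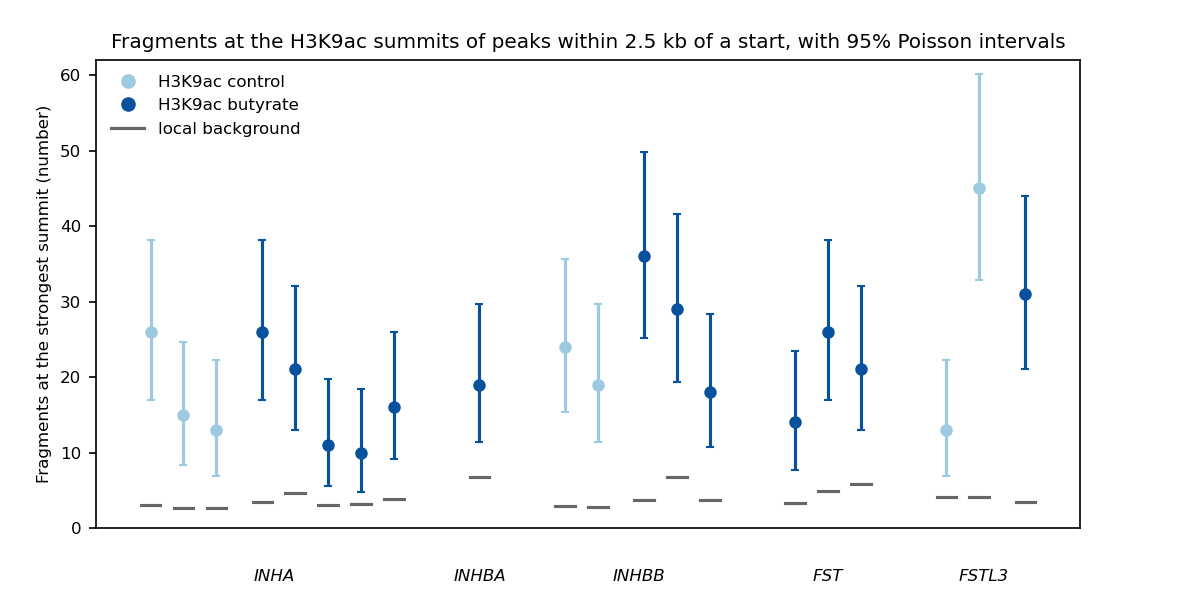
Fragments at the strongest summit of each H3K9ac peak within 2.5 kb of a start (number), with exact Poisson 95% intervals, ordered by position within each gene and condition. Grey lines are the local background in fragments. The highest point is the control peak of FSTL3 at 45 fragments, and the INHBA and FST points come from the butyrate library alone.

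Around FSTL3 the window held 10 H3K9ac peaks in control and 41 with butyrate, covering 10.52 kb and 43.07 kb, a ratio of 4.09. Of the control peaks, 6 were at other starts only: POLRMT, the mitochondrial RNA polymerase, FGF22, a fibroblast growth factor, RNF126, a ubiquitin ligase, and PALM, a membrane phosphoprotein. Control peaks of 2627 bp in all within RNF126 lay under 1 butyrate peak of 5152 bp, and those of 485 bp upstream of its start under another of 3112 bp. At FGF22 the widths were 232 and 809 bp, and at PALM 415 and 3180 bp. POLRMT had a peak on either side of its start in both lists. The one inside the gene was slightly narrower with butyrate (1392 against 1339 bp), and the one outside was wider (1061 against 1664 bp). Wider peaks with butyrate were thus found at all 4 of these neighbours as well as at FSTL3, with the POLRMT peak inside the gene as the exception.

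**Figure D3:**
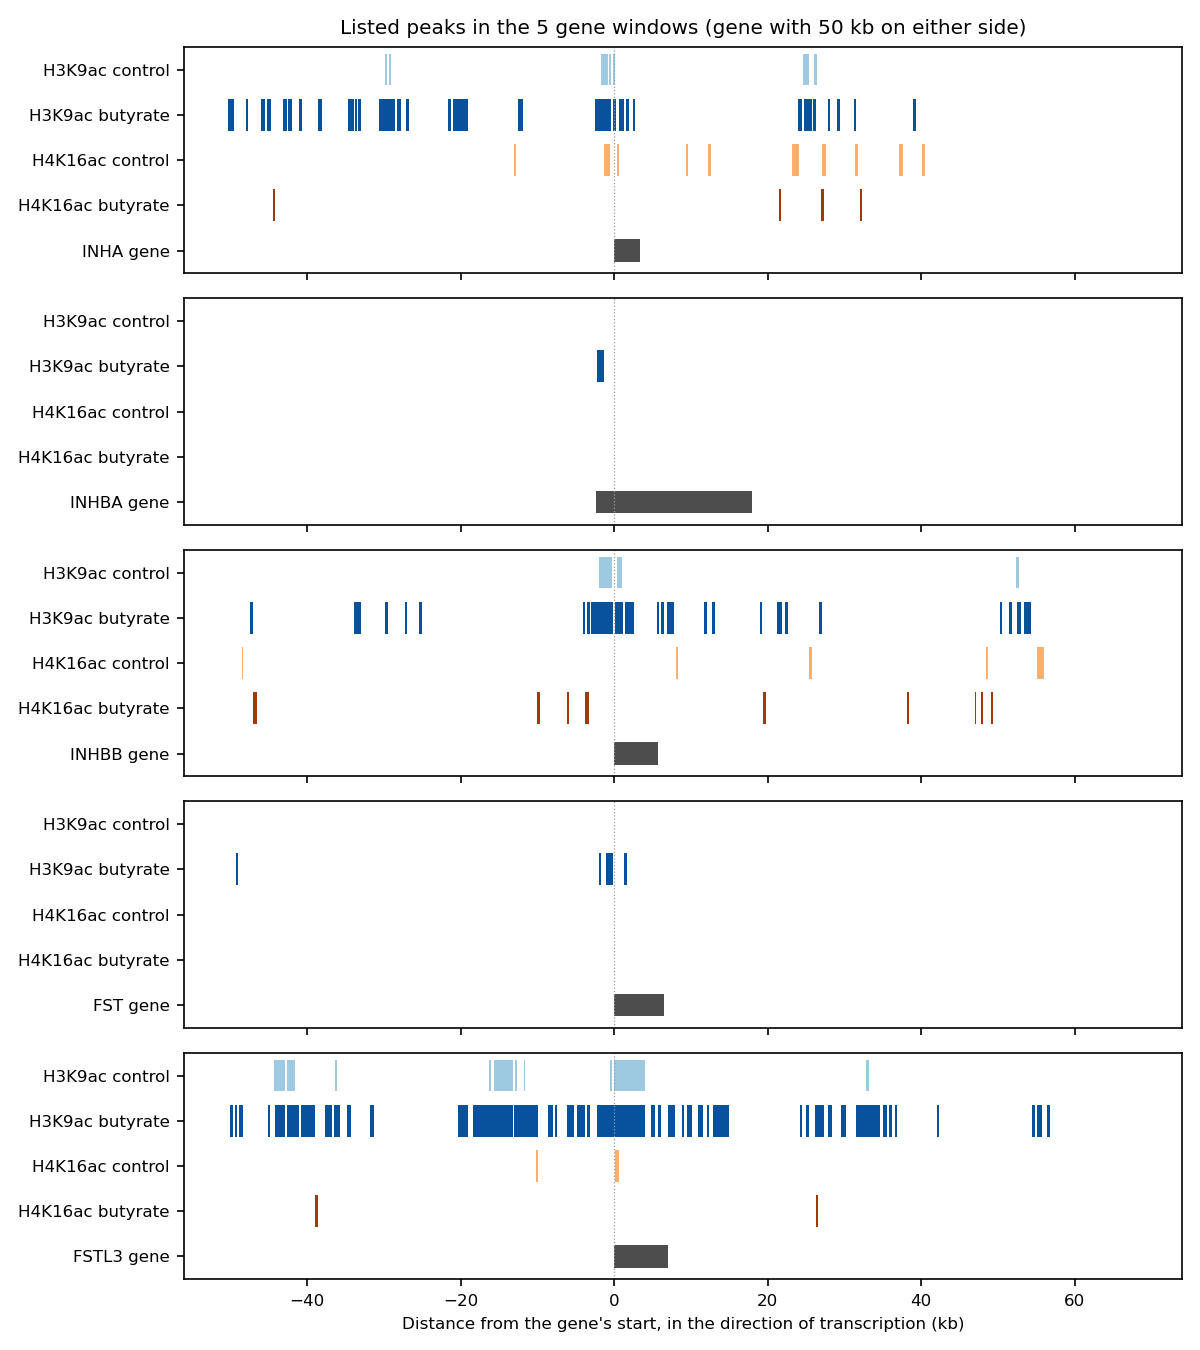
Every listed peak in the 5 windows by distance from the gene's start, in the direction of transcription (kb), with 1 row per list and the gene as a grey bar. The butyrate H3K9ac rows of INHA, INHBB and FSTL3 hold peaks on both sides of the start and far from it (29, 23 and 41 peaks), with empty stretches between, whereas the INHBA and FST windows hold 1 and 4 peaks.

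In the 5 windows together, H3K9ac peaks numbered 20 in control and 98 with butyrate and covered 16.52 kb and 78.3 kb. The count was higher with butyrate in 5 of 5 windows, against 74.5% of all genes. In all genes the median window held 2 peaks in control (quartiles 1 and 5) and 7 with butyrate (2 and 18). The median covered length of a window was 2.2 kb in control and 5.08 kb with butyrate. The whole H3K9ac lists covered 20.3 Mb and 59.8 Mb. The difference in count placed FSTL3 (31 peaks) at percentile 97.0 of all genes, INHA (22) at 90.1, INHBB (20) at 87.5, FST (4) at 51.3 and INHBA (1) at 30.8, with ties at their midpoint. By the control count alone, FSTL3 already stood at percentile 92.7, INHA at 84.7, INHBB at 57.0, and FST and INHBA at 12.1. The butyrate list was longer as a whole, and with equal numbers of top peaks from both lists the butyrate total was 25 against 20 in control. INHA then had 7 peaks in control and 10 with butyrate, FSTL3 10 and 12, FST 0 and 1, and INHBA 0 and 0. INHBB turned to 3 and 2.

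**Figure D4:**
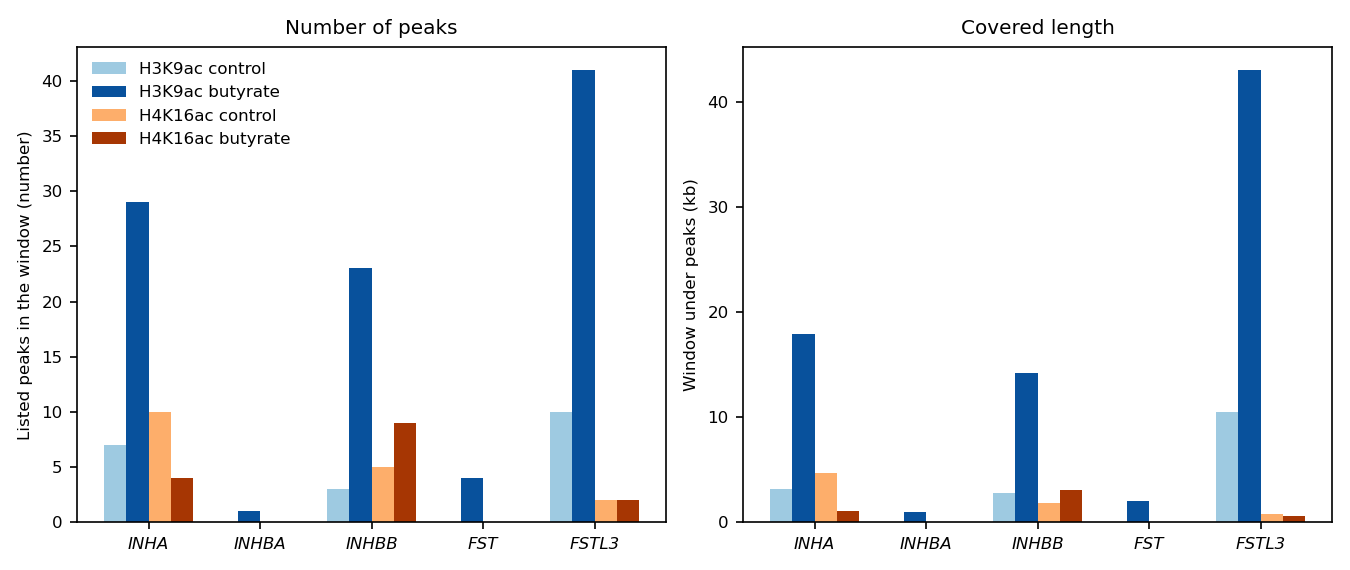
Listed peaks (left, number) and length under peaks (right, kb) in each gene's window, with 1 bar per list and no replicates. FSTL3 has the highest H3K9ac bars with butyrate (41 peaks, 43.07 kb), and INHBB is the gene whose H4K16ac bars are higher with butyrate (5 and 9 peaks).

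All 20 control H3K9ac peaks of the windows overlapped a butyrate peak by at least 1 bp, as did 92.4% of the whole control list, and they corresponded to 15 butyrate peaks. Of those 15, 13 were wider than the control peaks they overlapped, against 69.0% of shared peaks in the whole lists, and 9 had a higher fold, taking the highest of a peak's summits, against 43.2%. The median ratio of butyrate to control was 1.61 for width and 1.02 for fold, beside 1.27 and 0.94 over all 18267 shared peaks. The shared peaks of these windows therefore differed more in width than in fold. The butyrate list reached down to a −log10 p of 2.97, against 3.46 in control, and its library was deeper (29.4 M against 24.3 M fragments). The part of these 2 differences in the widths, here and at the single genes above, was not tested.

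The other 83 of the 98 butyrate H3K9ac peaks had no control counterpart, as did 77.0% of the whole butyrate list. They were narrower and lower than the shared ones, with a median width of 446 bp against 1664 bp and a median fold of 3.27 against 5.46. The same order held over the whole butyrate list (404 against 1279 bp, and 3.22 against 5.39). Of the 83, 13 lay within 5 kb of the member's start, 19 from 5 to 20 kb and 51 farther away. Of these peaks 9 lay inside the member itself, 39 inside another protein-coding gene and 35 in none. Scaled to the depth of control, 63 of the 83 (75.9%) reached the control list's limit, against 70.2% of all butyrate H3K9ac peaks without a counterpart. As at FST, the summits are maxima picked in the butyrate library, and the part of depth in the missing control peaks was not tested.

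H4K16ac differed from H3K9ac in that its lists barely met. The windows held 17 peaks in control and 15 with butyrate, of which 1 was shared, 16 were in control alone and 14 with butyrate alone. The count was lower with butyrate in 1 of 5 windows (INHA), against 60.7% of all genes, higher in INHBB, 2 and 2 in FSTL3 and 0 and 0 in INHBA and FST. The INHBB difference of 4 peaks stood at percentile 97.4 of all genes and that of INHA at 31.0. Over the whole lists 6.2% of control and 13.4% of butyrate H4K16ac peaks were shared. Scaled for depth, 16 of the 16 control peaks without a counterpart reached the butyrate list's limit (97.4% in all), and 12 of the 14 butyrate peaks reached that of control (76.8% in all). Both lists stop at a −log10 p of 2.3 and the butyrate library is deeper. Control peaks scaled up were therefore nearly bound to reach the limit. The summits are maxima picked in 1 library, and the part of depth in the absent peaks was not tested.

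The direction of the H4K16ac total depended on which peaks were counted. With a q of 0.05 or less in every list it was 7 in control and 1 with butyrate, and with equal numbers of top peaks it was 8 in control and 15 with butyrate. With the limit on q, INHA had 5 and 0 peaks, INHBB 2 and 1, and FSTL3 0 and 0, so INHBB was no longer higher with butyrate. With equal numbers, INHA had 6 and 4 peaks, INHBB 2 and 9, and FSTL3 0 and 2. An H3K9ac peak of the same condition was overlapped by 2 of the 17 control H4K16ac peaks, against 5.60% of the whole list, and by 3 of the 15 butyrate peaks, against 11.9%.

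**Figure D5:**
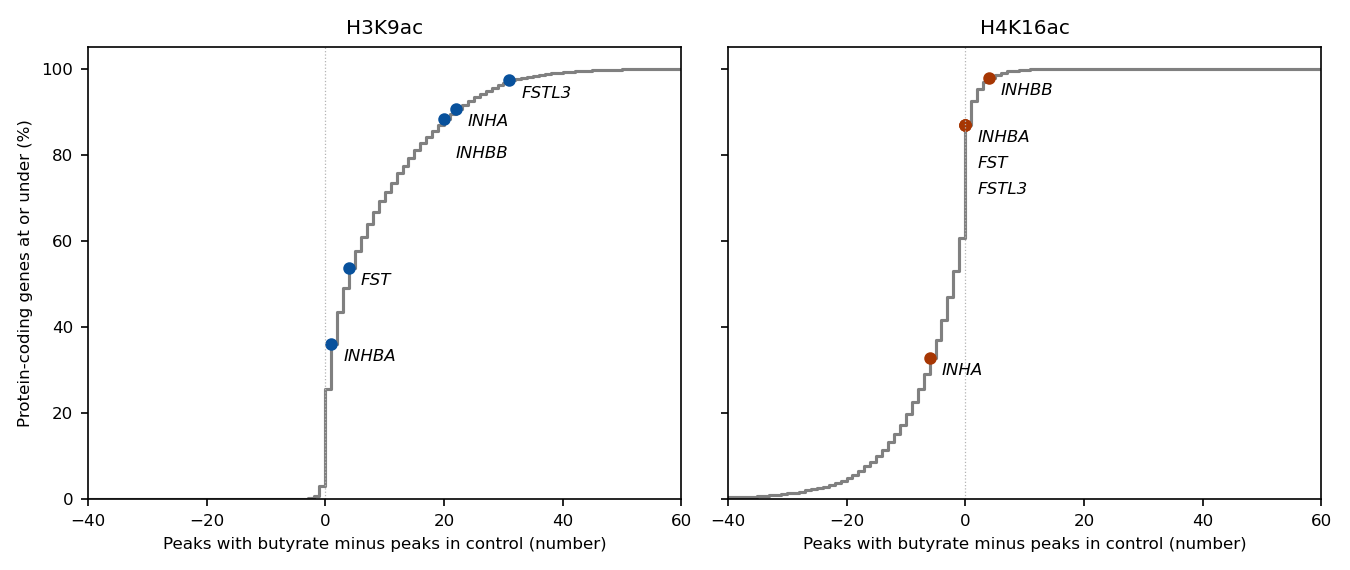
Share of 19970 protein-coding genes (%) whose window difference, butyrate minus control peaks (number), is at or under the value on the x axis, for H3K9ac and H4K16ac. Points mark the 5 genes: FSTL3, INHA and INHBB lie at the upper end for H3K9ac (31, 22 and 20 peaks), and INHBB lies at the upper end for H4K16ac (4 peaks).

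The other genes of the activin pathway were taken as a list of 22 genes. H3K9ac lay at 15 of their starts in control and at 17 with butyrate, against 58.1% and 67.8% of all genes. None of the 15 was lost. The 2 additions were GDF11, a ligand that follistatin also binds, and ACVR1C, the type I receptor ALK7. GDF11 had 3 butyrate peaks within reach of its start, the largest 1202 bp wide with a fold of 6.73 (chr12:55743318-55744519), stronger in fold than the FST peak. The ACVR1C peak was 251 bp wide, the narrowest width in the list, with a fold of 3.15 (chr2:157628681-157628931). Of the 7 genes without a control peak, 2 had one with butyrate, beside the 23.5% of all such genes given above.

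By role, control H3K9ac marked 1 of 4 ligands (INHBE), 6 of 8 receptors and coreceptors, 4 of 4 intracellular transducers, 2 of 2 convertases that cut the precursors and 2 of 4 transcription factors (FOXL2 and CREB1). The starts of INHBC, MSTN, CRIPTO, GATA4 and NR5A1 had no H3K9ac peak in either list. Against 20.1% and 4.91% of all genes, H4K16ac lay at 4 of the 22 starts in control and at 0 with butyrate. These were INHBC, the beta C subunit (354 bp, fold 3.23), TGFBR3, the inhibin coreceptor betaglycan (296 bp, fold 2.80), SMAD2, the activin signal transducer (403 bp, fold 2.92), and SMAD7, its inhibitor (291 bp, fold 3.55). The −log10 q was 1.42 at INHBC, 0.9 at TGFBR3, 1.12 at SMAD2 and 1.61 at SMAD7. The TGFBR3 and SMAD2 peaks thus did not pass the limit on q used above. The TGFBR3 peak (chr1:91906373-91906668) lay apart from its control H3K9ac peak (chr1:91884524-91886703), so they were called at different annotated starts. With the 2 members, all 6 H4K16ac marks at starts of this pathway were absent with butyrate, at a background of 89.0% of genes. The mark at FSTL3 did not pass the limit on q either.

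The genes most like each member were sought by the Euclidean distance over 8 values, the log2 of peaks plus 1 and of covered kb plus 1 in each of the 4 lists, leaving out the member's own chromosome. INHA was nearest to GPR146 (distance 0.33; 7 and 26 H3K9ac peaks in control and with butyrate) and BAHD1 (0.46). INHBB was nearest to MED9 (0.43; 4 and 24) and INAFM2 (0.45), and FSTL3 to MAMDC4 (0.48; 12 and 40) and PKD1 (0.49). INHBA was nearest to SFTPD (0.00) and MSX2 (0.04), and FST to RGS16 (0.04). For each member, 18519 to 19067 genes on other chromosomes were compared, and the small distances of INHBA and FST rest on windows with few peaks.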

How the data were processed

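Peak lists of 6 of the 8 samples were used, 1 library each for H3K9ac, H4K16ac and IgG in control and butyrate-treated KGN cells. The 2 input samples were not analysed here. The members, the gene lists and the tests were chosen with earlier results of these data known.

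CASAVA 1.7 and MACS2 2.1.0 were used, per the submitters' processing notes. The aligner is not given in the sources used here. The notes name hg19, but over 13600 genes the median distance between the authors' start and that of RefSeq GRCh38.p14 was 66 bp, so positions are read as GRCh38. Fold is the deposited ratio of summit pileup to local background, each with the same small constant added. MACS2's p and q were deposited as −log10 values. The authors' score is 10 times the −log10 q (H3K9ac, IgG) or −log10 p (H4K16ac) and was not used. Peak names in the deposited lists labelled H4K16ac carry the letters k12. The files do not settle which antibody was used, and the label H4K16ac is kept.

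Rows sharing bases were merged to 1 peak on chromosomes 1 to 22 and X, and starts are printed with 1 added. A promoter peak reaches within 1 kb of the authors' or the RefSeq start. Shared peaks overlap by at least 1 bp. Fragments and background were solved from fold and p at 100% of summits (tolerance 0.002), which took a scale below 1 in the butyrate H4K16ac list. Depth assumes a genome of 2.7 Gb, and the comparison scaled by depth was added after seeing the data. Counts, merging and recovery were checked on simulated data (Python 3.11.15, pandas 2.3.3, scipy 1.17.1). Named genes are the members, neighbours whose start lies within 1 kb of a peak in the window, pathway genes whose promoter state differed and the 2 genes most like each member. Of the genes this rule takes, 1 is not reported here. With 1 library per condition and antibody no test was possible.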

Additional observations from a re-analysis of the deposited data

How the results depend on the processing

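Of 54 values recomputed under another setting, 40 stayed within 1.5 times of the reported count and 14 did not. Some of the 40 could not have moved. The H3K9ac lists already stop at a q of 0.05, and equal numbers of top peaks leave the shorter list of a mark whole. The same limit on p leaves the control H3K9ac list and both H4K16ac lists as they were. A flank of 10 kb left 7 H3K9ac peaks in control and 34 with butyrate, and 7 and 3 H4K16ac peaks. Joining peaks less than 1 kb apart gave 10 and 42 H3K9ac peaks, and counting each summit gave 40 and 162. Equal numbers of top peaks left 25 H3K9ac peaks with butyrate, 8 H4K16ac peaks in control and 1 gene with an H4K16ac peak at its start in control (INHA). A q of 0.05 or less left 7 and 1 H4K16ac peaks and the same single start. In the 5 windows together, H3K9ac counts were higher with butyrate under each of these settings. The same limit on p in both lists of a mark, chosen after seeing the data, left 92 H3K9ac peaks with butyrate. No paired analysis was possible because each condition and antibody has 1 library. The control H4K16ac library is the shallowest (17.4 M), and its weakest listed summits rest on 6 fragments.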
